A study of Mus musculus with 2 samples.

Results

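The 9 genes described here were the CCN matricellular genes Ctgf, Cyr61, Nov, Wisp1 and Wisp2, the target genes Ankrd1 and Amotl2 of the transcriptional coactivator YAP, and Yap1 and Tead1, which encode YAP itself and one of its DNA-binding partners. They were chosen by name, as every non-control probe whose gene name was one of the 9, and they are 9 of 31790 gene names on the array and 12 of 39429 probes. All 9 had a probe above background and could be read. Newer names for the CCN genes are Ccn1 (Cyr61), Ccn2 (Ctgf), Ccn3 (Nov), Ccn4 (Wisp1) and Ccn5 (Wisp2).

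RNA came from 1 line of immortalized mouse embryonic fibroblasts (MEF) of mixed C57BL/6 x B6:129 Ola background. Both groups carried the Rosa26ERT2 Cre transgene, whose recombinase becomes active with tamoxifen, together with both THOC5 alleles floxed (THOC5 flox/flox), so the control cells, called wildtype in the labels, had the same alleles without tamoxifen. The THOC5-depleted cells had 2 days of tamoxifen, which the control cells did not, so that THOC5 loss and tamoxifen itself cannot be told apart here. On each of 2 dual-color arrays, 1 per group, cells without serum (Cy3) were hybridised against cells given fetal calf serum (FCS) for 1 h (Cy5), to ask which immediate early transcripts need THOC5, a subunit of the TREX messenger RNA export complex.

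With 1 array per condition there was no replicate check, and no p-value or error between cultures could be given. Cy5 always held the serum sample and no dye swap was analysed here, so a dye effect and a serum effect cannot be told apart on an array. The only measured error was that between spots of 1 array, which says nothing of variation between cultures, from 268 probes printed 10 times. For such probes with a signal of 2000 or more, the median SD of the log2 serum ratio was 0.0192 (control) and 0.0201 (THOC5-depleted), and for those under 200 it was 0.0995 and 0.110. In these bulk samples fewer cells of a type and less RNA per cell cannot be told apart.

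The arrays had 43020 non-control spots each, of which 62.1% to 64.4% per channel were well above background. Thoc5 was read at 4808 (unstimulated) and 3047 (serum) in the control cells and at 546 and 455 in the THOC5-depleted cells, and after scaling between the arrays it was 7.08-fold lower in unstimulated and 5.38-fold lower in serum-stimulated THOC5-depleted cells. All 9 fibroblast markers, among them Col1a1, Vim and Pdgfrb, were well above background in all 4 channels, with a summed signal of 344359 to 460818. Of the other cell types' markers, 3 of 5 epithelial (summed signal 160 to 246), 3 of 4 endothelial (896 to 1147), 1 of 4 macrophage (424 to 580) and 2 of 5 muscle markers (80.8 to 95.9) were above background in all channels. Cdh1, Tek, Myog and Actc1 were above it in none.

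CCN proteins are secreted, cysteine-rich proteins that bind integrins and proteoglycans in the matrix and change how cells adhere, migrate and respond to growth factors. YAP is held in the cytoplasm by the kinases of the Hippo pathway, and in the nucleus it joins TEAD proteins on DNA to switch on genes that include Ctgf, Cyr61 and Ankrd1. In fibroblasts serum lipids acting through the cytoskeleton are known to release YAP, and Cyr61 and Ctgf are long known as immediate early genes.

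The reference promoters, from RefSeq (GRCm38.p6) and running from 250 bases before to 50 after the start, held 4 of the 9 genes, namely Cyr61, Yap1, Amotl2 and Ankrd1. All 4 of them held the TEAD motif GGAATG on either strand, as did 14.7% of 32851 promoters in the table. Cyr61, Ankrd1 and Amotl2 were chosen as known YAP targets, so this count is a description, and a match is not a site of binding. The windows around each match are shown because they are what the 4 promoters share by sequence, with the motif, or CATTCC where it lies on the other strand, in capitals.
Cyr61 (chr3:145650071-145650100, minus strand, motif 103 bases before the start): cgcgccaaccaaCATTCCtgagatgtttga
Ankrd1 (chr19:36120037-36120066, minus strand, 210 bases before): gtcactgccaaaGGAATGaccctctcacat
Ankrd1 (chr19:36119950-36119979, minus strand, 123 bases before): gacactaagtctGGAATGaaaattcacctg
Amotl2 (chr9:102717727-102717756, plus strand, 65 bases before): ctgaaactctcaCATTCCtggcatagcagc
Yap1 (chr9:8004720-8004749, minus strand, 141 bases before): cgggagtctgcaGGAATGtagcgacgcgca
The TATA box letters TATAAA were present in 1 of the 4, Cyr61, and in 13.6% of all promoters. The AP-1 motif TGANTCA was in 0 of 4 and in 7.81% of all, and the CArG box, the core of the serum response element, in 0 of 4 and in 1.63% of all, which says only that these letters are not in this window.

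Serum was followed by higher signals of the CCN genes Ctgf and Cyr61 and of Ankrd1 on the control array, and the ratio of all 3 was smaller on the THOC5-depleted array. The other 6 genes lay within 2-fold on both arrays. In THOC5-depleted cells without serum, Ctgf alone of the 9 was more than 2-fold higher than in control cells. Signals below are the deposited processed signals, in arbitrary units and not scaled between the arrays, and are compared within a probe only.

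Each gene was measured by 60-base probes with positions on mm9. The first 30 bases of the probes behind these 3 genes are shown, since every value of theirs comes from 1 probe and 1 spot.
Ctgf (chr10:24318281-24318340, plus strand): gtcaaatccctgttggtgaacaaatggcct
Cyr61 (chr3:145310187-145310246, minus strand): aagattagttgggccaagtgaaagccctgc
Ankrd1 (chr19:36186809-36186868, minus strand): cccctttgtgttctcacttgcataaagcta

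Ctgf encodes connective tissue growth factor, a secreted CCN protein tied to matrix production and fibrosis. Its signal was 12252 in unstimulated control cells and 130374 after serum, and 26668 and 59525 in THOC5-depleted cells. The unstimulated THOC5-depleted value thus lay above the unstimulated control value, while the serum value lay below the serum value of control cells. The serum ratio was 10.6 (log2 3.41) in control and 2.23 (log2 1.16) in THOC5-depleted cells, ranking 26 of 20513 and 128 of 20213 genes from the highest. The control ratio was therefore 4.77 times the THOC5-depleted ratio (log2 2.25), rank 19 of 21135 genes. How such a difference varies between cultures was not measured.

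Cyr61 encodes another CCN protein, which binds integrins and promotes adhesion and migration. Its signal was 9858 without and 67382 with serum in control cells, and 10703 and 37913 in THOC5-depleted cells. On each array the serum signal was the higher. The serum ratio was 6.84 (log2 2.77, rank 50) in control and 3.54 (log2 1.82, rank 53) in THOC5-depleted cells, so its place among all genes was nearly equal on both arrays. The first ratio was 1.93 times the second (log2 0.95), just under 2-fold. Without dye normalization this difference was just past 2-fold (log2 1.08), with the median of all genes moved to 0.09. With both arrays scaled to one spread, as described below, it was 0.20.

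Ankrd1, a cardiac and muscle ankyrin repeat protein that is also a YAP target in many cell types, was read at 23219 and 72568 in control cells and at 24765 and 38509 in THOC5-depleted cells. The control serum signal stood apart from the other 3. The serum ratio was 3.13 (log2 1.64, rank 214) in control and 1.55 (log2 0.64, rank 574) in THOC5-depleted cells. The control ratio was 2.01 times the other (log2 1.01), just past 2-fold, and with another background correction (normexp and loess) it was just below 2-fold.

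**Figure D1:**
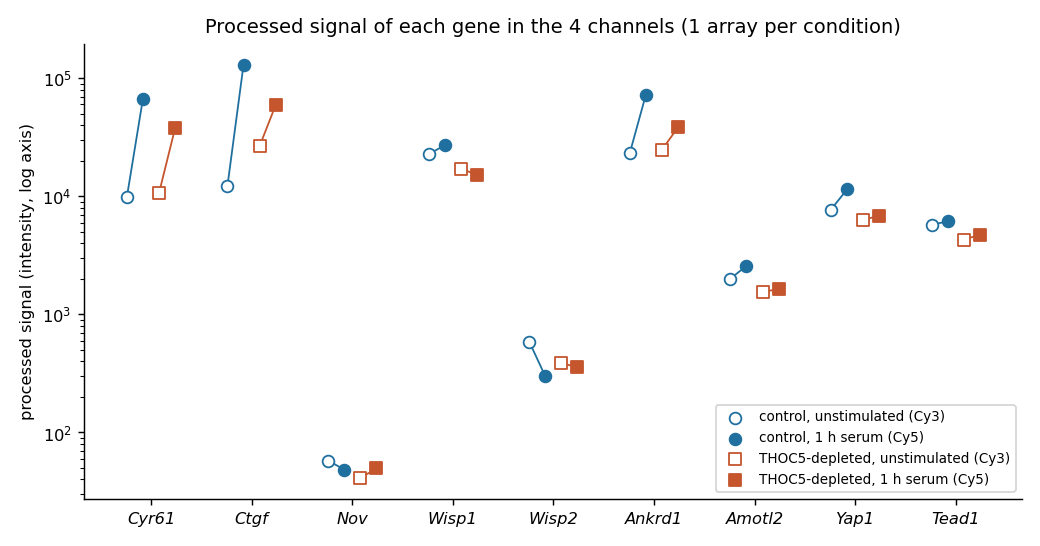
Processed signal (log scale, arbitrary units) of the 9 genes in the 4 channels, 1 spot per point, unstimulated and after 1 h of serum for each array. Ctgf goes from 12252 to 130374 in control and from 26668 to 59525 in THOC5-depleted cells, while the lines of Tead1 (5733 to 6142 and 4306 to 4715) are nearly flat.

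Of the 9 genes, 3 were 2-fold or more higher after serum in control cells (Ctgf, Cyr61 and Ankrd1), where 2.59% of all 20513 genes tested were, and 0 were 2-fold lower (1.8% of all, and 4.39% in either direction). In THOC5-depleted cells 2 of 9 were 2-fold or more higher (Ctgf and Cyr61), against 0.915% of 20213 genes, and 0 were lower (0.416%, and 1.33% in either direction). A control ratio at least 2 times the THOC5-depleted ratio was found for 2 of 9 (Ctgf and Ankrd1) and for 1.35% of 21135 genes. The reverse held for 0 of 9 and 0.946% of all, which makes 2.29% in either direction. The 9 genes had a median log2 ratio of 0.36 (control) and 0.13 (THOC5-depleted), beside -0.02 and -0.01 over all genes.

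Log2 serum ratios were spread more narrowly over the probes well above background in all 4 channels on the THOC5-depleted array (median absolute deviation 0.138) than over the same probes of the control array (0.193). With both arrays scaled to one spread, the difference between arrays became 1.52 for Ctgf, 0.64 for Ankrd1 and 0.20 for Cyr61 on the log2 scale, and Ctgf alone of the 9 remained past 2-fold. How much of each gene's smaller ratio goes with the narrower spread of the array was not tested.

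**Figure D2:**
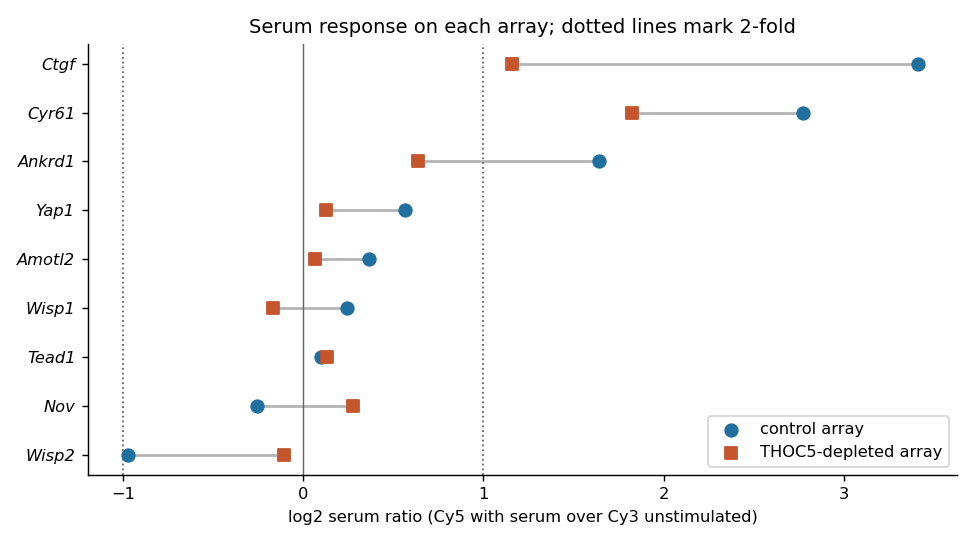
Log2 serum ratio of each of the 9 genes on the control and the THOC5-depleted array, 1 array each, with 2-fold marked. Ctgf (3.41 and 1.16), Cyr61 (2.77 and 1.82) and Ankrd1 (1.64 and 0.64) stand to the right of the other 6 genes.

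**Figure D3:**
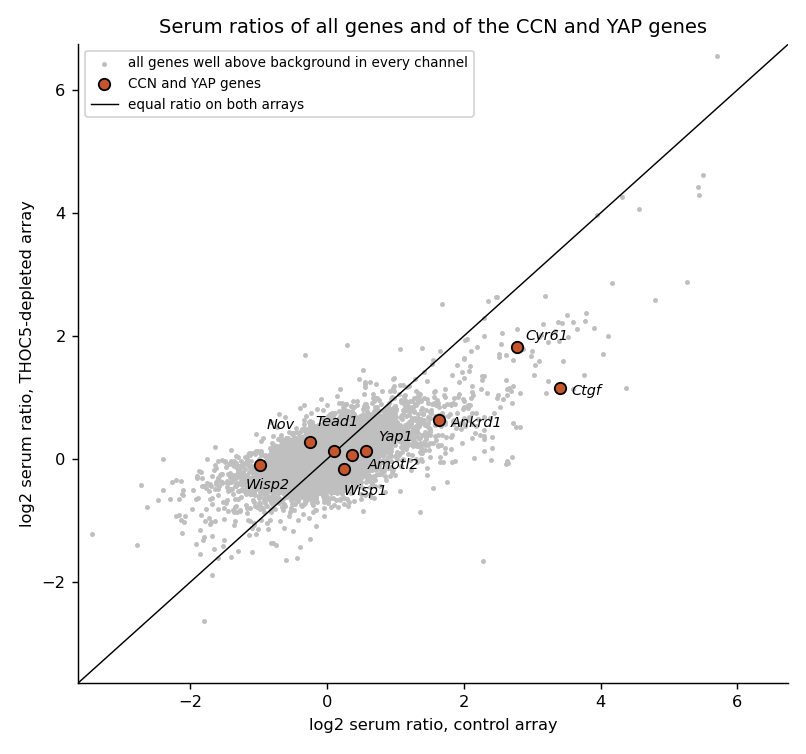
Log2 serum ratio on the THOC5-depleted array against that on the control array, for all genes well above background in every channel (gray) and the 9 genes (orange), with a line of equal ratios. Ctgf lies farthest below the line of the 9, at 3.41 and 1.16, and Wisp2 lies to the left, at -0.97 and -0.10.

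The remaining CCN genes lay within 2-fold of serum, and they did not share a direction. Wisp2, which lacks the C-terminal domain of other CCN proteins, was read at 588 and 299 in control cells and at 385 and 358 in THOC5-depleted cells. The unstimulated control value stood above the other 3. After serum it was 1.96-fold lower in control cells (log2 -0.97, rank 399 from the lowest), just short of 2-fold, and the log2 ratio was -0.10 in THOC5-depleted cells, with a difference between arrays of -0.87. Without dye normalization, where the medians of all genes were 0.84 and 0.75, the log2 ratios of Wisp2 were -0.23 and 0.61, below both.

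Wisp1, first found as a target of Wnt1 signalling, had 2 probes. The brighter (chr15:66754637-66754696, plus strand) was read at 22799 and 26989 in control cells and at 17121 and 15265 in THOC5-depleted cells. The other (chr15:66750958-66751017) was read at 6054 and 8091, and at 5289 and 4596. Both probes were higher with serum in control cells (log2 0.24 and 0.42) and lower with serum in THOC5-depleted cells (log2 -0.17 and -0.20), all within 2-fold. Without dye normalization the brighter probe was at 1.29 and 0.71, above and below the medians of all genes so read (0.84 and 0.75).

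Nov, a CCN protein known to inhibit growth in several cell types, was read at 57.9 and 48.5 in control cells and at 41.0 and 49.7 in THOC5-depleted cells, in the range where spot error was largest. The log2 ratio was -0.25 in control and 0.28 in THOC5-depleted cells. Without dye normalization the control value was 0.56, below the median of all genes so read (0.84), and with a floor of 50 the THOC5-depleted value was 0.00. Wisp3, the sixth CCN gene, was not well above background in any channel.

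Amotl2, an angiomotin family scaffold that binds YAP and is also its target, was read at 2005 and 2579 in control cells and at 1556 and 1631 in THOC5-depleted cells. The log2 ratio was 0.36 on the control and 0.07 on the THOC5-depleted array. Thus, this YAP target lay within 2-fold on both arrays, unlike Ctgf and Cyr61.

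Yap1, the coactivator, was read at 7722 and 11444 in control cells and at 6304 and 6870 in THOC5-depleted cells. The serum ratio was 1.48 (log2 0.57) and 1.09 (log2 0.12). Tead1, its DNA-binding partner, had 3 probes, of which the brightest (chr7:120049844-120049903, plus strand) was read at 5733 and 6142 in control cells and at 4306 and 4715 in THOC5-depleted cells. Its log2 ratios of 0.10 and 0.13 were the closest to each other of the 9 genes. A second Tead1 probe gave 56.5 and 69.1 in control and 59.8 and 72.9 in THOC5-depleted cells, a log2 ratio of 0.29 on both arrays, and the third was not well above background in THOC5-depleted cells.

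Next, the arrays were compared channel by channel after Aquantile scaling, which gives the average intensities of both arrays the same distribution. These comparisons use the same 4 channels as the serum ratios, so they are another view of the same values. Without serum, Ctgf was 2.54-fold higher in THOC5-depleted than in control cells (log2 1.34), rank 245 of 20846 genes. It was the only 1 of the 9 past 2-fold in the higher direction, where 2.28% of all genes were, and 0 of 9 were 2-fold lower (2.16% of all, and 4.44% in either direction). Cyr61 and Ankrd1 were 1.31-fold and 1.25-fold higher (log2 0.39 and 0.32). Amotl2 (log2 -0.06), Yap1 (0.03) and Tead1 (-0.08) lay close to 0, and Wisp1 (-0.12), Nov (-0.35) and Wisp2 (-0.36) lay below it. The sign of Yap1 and Wisp1 changed in 1 of 6 other settings each, without scaling between arrays for Yap1 and with the mean of both probes for Wisp1.

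After serum, 0 of 9 genes were past 2-fold between THOC5-depleted and control cells, against 4.87% of 20355 genes in either direction (2.5% higher and 2.37% lower). Ctgf was 1.88-fold lower in THOC5-depleted cells (log2 -0.91), Ankrd1 1.61-fold lower (-0.69) and Cyr61 1.47-fold lower (-0.55). Without scaling between arrays, which shifts the median of all genes by -0.25, the value of Ctgf was -1.13 and past 2-fold. Wisp1 (-0.52), Yap1 (-0.42), Amotl2 (-0.36) and Tead1 (-0.05) were also below 0. Thus 7 of 9 were lower in THOC5-depleted cells, beside 10199 of 20355 among all genes. The median was -0.42, beside -0.00 over all genes. Nov (0.18) and Wisp2 (0.51) were higher. The probes of Tead1 differed here. Its second probe was at 0.23 both without and with serum. The third, not well above background in THOC5-depleted cells, was at -1.22 and -1.39.

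**Figure D4:**
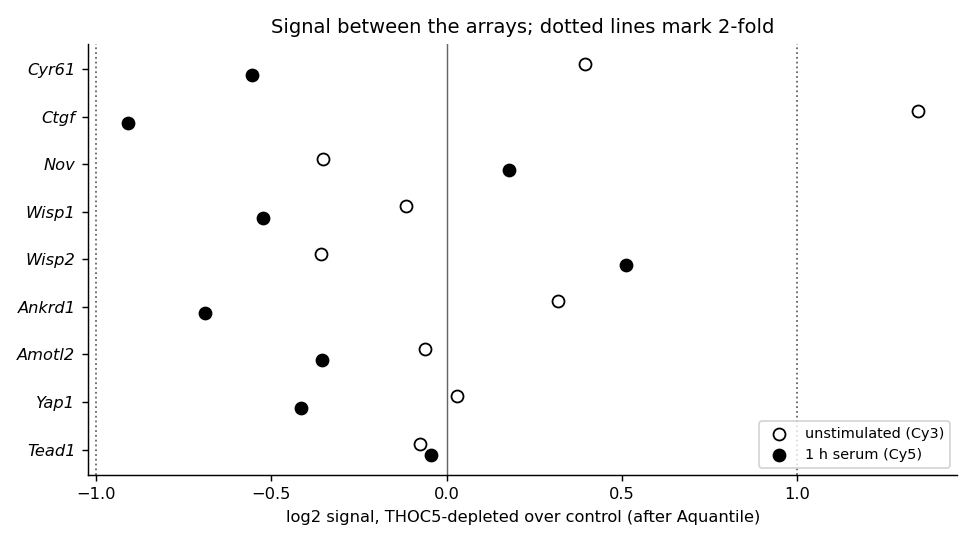
Log2 of the signal of THOC5-depleted cells over that of control cells, for the 9 genes, unstimulated (open) and after 1 h of serum (filled), with 2-fold marked. Ctgf is at 1.34 without and -0.91 with serum, whereas both points of the brightest Tead1 probe (-0.08 and -0.05) lie near 0.

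Other genes of the pathway were then read. Of 27 genes of the Hippo and YAP core, 0 were past 2-fold with serum on either array, near the share of all genes (4.39% in control and 1.33% in THOC5-depleted cells, either direction), so nothing is read from this count. The median log2 ratio was 0.18 in control and 0.00 in THOC5-depleted cells, beside -0.02 and -0.01 over all genes. Map4k4, a kinase upstream of the LATS kinases (0.58), and Amotl1, an angiomotin family scaffold (0.38), were highest in control cells among those above background in every channel. Jub, a LIM protein that restrains LATS (-0.78), and Amot, the founding angiomotin (-0.38), were lowest. Between the arrays, Amotl1 was higher in THOC5-depleted cells without (log2 1.63) and with serum (1.09). Fat4, a giant cadherin upstream of the pathway, was lower without serum (-1.11), and Vgll3, a TEAD cofactor, was lower with serum (-1.12), both at signals under 100.

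Of 17 other YAP target genes tested, F3 alone was past 2-fold with serum in control cells, and again in THOC5-depleted cells, where 2.59% and 0.915% of all genes were higher, and nothing is read from a count of 1. F3, or tissue factor, which starts blood clotting, was read at 5210 and 52468 in control cells and at 5230 and 22121 in THOC5-depleted cells, log2 ratios of 3.33 and 2.08 with a difference of 1.25. After scaling between the arrays it was 1.26-fold higher without serum (log2 0.33) and 1.90-fold lower with serum (log2 -0.92) in THOC5-depleted cells. The list's median was 0.14 in control and 0.03 in THOC5-depleted cells, beside -0.02 and -0.01 over all genes. Tgfb2, a growth factor, followed at 0.76 in control cells, and Gadd45a, a growth arrest gene (-0.72), and Nt5e, an ecto-nucleotidase (-0.35), were lowest. The difference between arrays, past 2-fold for 2.29% of all genes in either direction, was also past it for Igfbp3, a binding protein of insulin-like growth factors (1.07, at signals from 18.8 to 50.6), and in reverse for Gadd45a (-1.05). With serum, Gadd45a was higher (log2 1.75) and Igfbp3 lower (-1.29) in THOC5-depleted than in control cells. Lats2 and Ptpn14 belonged to both lists.

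Of 18 receptors and partners of CCN proteins, 2 were 2-fold or more higher with serum in control cells (2.59% of all genes). In THOC5-depleted cells 0 were (0.915%). On either array 0 were 2-fold lower (1.8% of all genes in control and 0.416% in THOC5-depleted cells). Each 0 is near the share of all genes, so nothing is read from these counts. The list's medians were 0.04 and -0.07, beside -0.02 and -0.01 over all genes. Itga5, the alpha subunit of the fibronectin receptor, was read at 1551 and 6767 in control cells and at 1210 and 2030 in THOC5-depleted cells (log2 2.13 and 0.75, difference 1.38). Vegfa, a growth factor that Ctgf protein binds, was read at 4467 and 18669, and at 3895 and 7180 (log2 2.06 and 0.88, difference 1.18). For both, as for Ctgf, the THOC5-depleted serum signal was the lower of the serum signals, by log2 -1.44 for Itga5 and -1.06 for Vegfa. Dcn, a matrix proteoglycan (-0.53), and Bmp4, a secreted ligand bound by CCN proteins (-0.43), had the lowest serum ratios in control cells, and Bmp4 was lower in unstimulated THOC5-depleted cells (log2 -1.02).

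**Figure D5:**
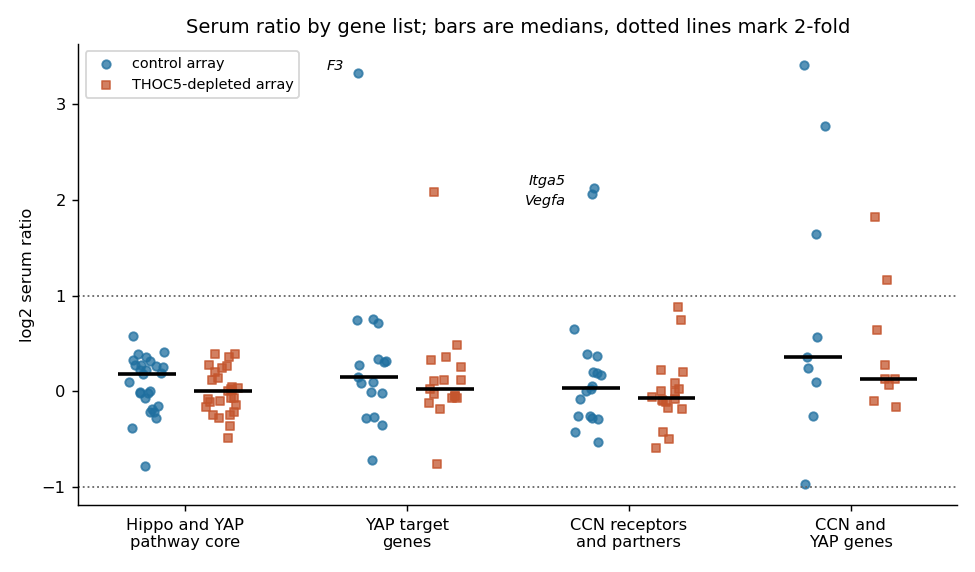
Log2 serum ratio of each gene in 3 pathway lists and of the 9 genes on both arrays (bars, medians of each list; dotted lines, 2-fold). F3 (3.33), Itga5 (2.13) and Vegfa (2.06) on the control array stand apart from the rest of their lists.

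The genes closest to each of 4 genes were found by distance over 3 log2 values (both serum ratios and the unstimulated difference between arrays) among 18622 other genes above background in every channel. For Ctgf 0 genes lay within 0.5, and close genes were Gzmm (distance 0.540) and Areg (0.812). Areg, which encodes a ligand of the epidermal growth factor receptor, had serum ratios of 8.55 and 3.03 and was 1.67-fold higher in unstimulated THOC5-depleted cells. For Cyr61, 10 genes lay within 0.5, led by A530058O07Rik (0.0974), Npas4 (0.297) and Id3 (0.306). For Ankrd1, 96 did, led by Gdnf (0.0475), Fam110c (0.136) and Gm6934 (0.164). Amotl2 had 7730 genes within 0.5, led by Cox6b2 (0.0278), ENSMUST00000111852 (0.0286) and 4931406P16Rik (0.0297), so its pattern was that of a large share of the array.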

How the data were processed

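Total RNA was labelled with Cy3 or Cy5 and hybridised to 2 Agilent arrays. The methods give 10 uM tamoxifen for 24 h, 24 h of growth medium, 24 h without serum and 20% serum. The labels give tamoxifen for 2 days. The deposited intensity values are per the file headers Agilent Feature Extraction 10.7.3.1 processed signals, from which the authors' software had subtracted background and in which it had normalized the dyes within each array (linear and LOWESS), but not between arrays. The deposited log10 ratios in the series table held sizes without sign and served as an alternative.

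Outlier spots were left out, spots of a probe averaged on the log2 scale, and a gene read by its brightest probe. A signal not well above background was raised to the lowest signal that was (11.2 to 14.0). Genes well above background in at least 1 channel compared were tested against a 2-fold threshold, with no p-value. Signals were scaled between arrays with Aquantile (limma 3.58.1, R 4.3.3), and the rest was computed in Python 3.11.15 with pandas 2.3.3. The calculation was first tested on simulated data with known answers. Of the 39425 probes with a spot left once outlier spots were dropped, 26409 had an accession in the reference, those of all 9 genes included. No mm9 gene annotation was used here, so exons and untranslated regions are not stated. The genes and lists were chosen with earlier results of these data known. The text names all 9 genes, in each list the 2 highest and 2 lowest serum ratios in control cells and the genes past 2-fold, and the 3 closest genes, of which 1 is not reported here. Alternatives changed the background correction, dye normalization, floor, spread, centring, probes, scaling and threshold.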

Additional observations from a re-analysis of the deposited data

Results flagged for a closer look

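For 7 of the genes named, the serum ratio lay on opposite sides of 0 on the control and the THOC5-depleted array, with a log2 size of at least 0.1 on both. The log2 difference, control minus THOC5-depleted, was -0.53 for Nov and 0.41 for Wisp1. It was 0.54 for Amotl1, -0.36 for Fat4, 0.50 for Vgll3, -1.05 for Gadd45a and 1.07 for Igfbp3. None of these differences was tested, since each condition had 1 array. Only genes named in the text were counted, and other genes of the pathway lists met the same rule. The share of all genes that met it was not counted, so nothing is read from the count of 7. Nov, Fat4, Vgll3 and Igfbp3 had signals under 100 in every channel. Without dye normalization, which moved the medians of all genes to 0.84 and 0.75, Nov was at 0.56 and 1.00 and Wisp1 at 1.29 and 0.71, on opposite sides of those medians.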

How the results depend on the processing

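No paired analysis was possible because each group had a single replicate and no result came from a test, and for the same reason no replicate could be left out. Without dye normalization the median log2 ratio of all genes was 0.84 on the control and 0.75 on the THOC5-depleted array, in place of -0.02 and -0.01. In that setting 7 of 9 genes were past 2-fold with serum in control and 4 in THOC5-depleted cells. With a 3-fold threshold the counts were 1 in THOC5-depleted cells, 1 for the difference between the serum ratios and 0 between unstimulated cells. The difference between serum ratios was past 2-fold for 1 gene with normexp and loess and for 1 with log ratios scaled to one spread. After serum, 1 gene was past 2-fold between the arrays without scaling and 2 were past 1.5-fold. The share of all genes was not counted under these settings, so nothing is read from these counts about the 9 genes. The other 40 counts were within 1.5 times those reported. For single genes, 251 values moved by less than the spot spread and 100 by more. That spread was the median spot SD of the difference between serum ratios (0.0272, 0.0424 or 0.162, by signal). Many of the 251 values, and of the 40 counts, could not move, so they are not a measure of stability. None of the 9 genes' spots was an outlier, and the probe used for each was above background in every channel. The deposited log10 ratios had the same sizes, and 7 of the genes had 1 probe. Limits are 1 array per condition, 1 spot per probe, 1 cell line, 1 time after serum, no dye swap, and the low signals of Nov, Fat4, Vgll3 and Igfbp3.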
